A study of Mus musculus with 24 samples.

Results

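Hypusine is an amino acid made only in the translation factor eIF5A, and spermidine is the donor from which it is built. The genes of this pathway are the 4 described here: Eif5a and Eif5a2, which encode the isoforms of the factor, Dhps, which encodes deoxyhypusine synthase, and Dohh, which encodes deoxyhypusine hydroxylase. They were chosen by gene symbol through the platform annotation, with the probe set of highest mean taken for each gene, and make up 4 of the 19938 genes tested. All 4 were measured.

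Deoxyhypusine synthase moves the aminobutyl group of spermidine onto a specific lysine of eIF5A, and deoxyhypusine hydroxylase then completes the residue. The modified factor binds the ribosome and helps it through sequences that stall elongation, such as runs of proline, and through termination. Because the donor is spermidine, a cell depleted of polyamines has less of the substrate of this modification. RNA levels do not report how much of the protein carries it, and the arrays measured neither polyamines nor hypusine.

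The arrays came from NIH3T3, a line of immortalised fibroblasts grown from mouse embryos. All 8 groups had spent 96 h in 1 mM DFMO (difluoromethylornithine), which inactivates ornithine decarboxylase and so depletes polyamines. The 0 min group was taken without spermidine, and the other 7 groups were taken after 10 µM spermidine had been added together with 1 mM aminoguanidine, which blocks amine oxidases. Of these, 3 groups were early (30, 60 or 120 min), 1 was taken at 240 min and 3 were late (360, 480 or 600 min). Each time had 3 biological replicates, 24 Affymetrix MoGene 1.0 ST arrays in all, and the question was how transcription responds when polyamines are given back. No group was labelled as DFMO without spermidine at a later time, so spermidine and time since 0 min cannot be told apart, and no label states if aminoguanidine was also given to the 0 min cells.

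Values are log2 levels as deposited, so a difference of 1 is a doubling. The array medians lay between 4.40 and 4.45. The 10 fibroblast markers had mean levels from 6.04 (Thy1) to 12.7 (Vim), and 19 markers of leukocytes, epithelium, adipocytes and muscle lay between 3.63 and 4.94. Replicate 3 at 120 min and replicate 3 at 240 min stood apart from their groups on the first principal component (2.61 against -12.2 for both other arrays at 120 min, and -13.2 against 2.07 and 1.49 at 240 min). Each thus lay near the other's labelled group, and whether their labels were exchanged was not tested. Both were kept as labelled, and the main values for the 4 genes that use them are also given with these 2 arrays removed. For every gene the 3 replicate numbers had equal means over the times to within 8.75e-05, so a replicate effect had been removed before deposit. The test below counts 16 residual degrees of freedom where 14 remained, and its p-values are somewhat too small.

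Promoter sequences from RefSeq (GRCm38.p6, 250 bases before to 50 after each annotated start) are shown for the stretches that the 4 genes have in common and for those they do not. All 4 genes had at least 1 window, 6 of them for Eif5a and 1 for each other gene. The ETS-family motif CCGGAAGT, searched on both strands, was present in a window of each of the 4 genes, against 4.31% of 27025 genes. In Eif5a it was in 1 of the 6 windows, and a gene with more windows has more chances to hold it. Of all 32851 windows 3.89% held the motif. It was singled out after the sequences were seen, so these shares are a description only. The motif is in capitals, on the opposite strand in Dhps, and each stretch is written 5′ to 3′ along its gene.
Eif5a (chr11:69920667-69920696, minus strand): cagccgtagcaCCGGAAGTgttccccattg
Eif5a2 (chr3:28781230-28781259, plus strand): cggggcctatcCCGGAAGTgtggtcgcggc
Dhps (chr8:85071704-85071733, plus strand): gagaccaagtgACTTCCGGtttcgtcgccc
Dohh (chr10:81384320-81384349, plus strand): ccggaggaagaCCGGAAGTtgcttctccgg

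Counted from the start site as 1, with no position 0, the first base of the motif lay at -55 in the sixth Eif5a window, at -36 in Eif5a2 (which holds another at -164), at -42 in Dhps and at -103 in Dohh. The E-box CACGTG reads the same on both strands and was not in every gene. It was found in 3 of the 6 Eif5a windows (windows 2 and 3 overlap and share 1 site), in the Eif5a2 window at -142 and -117, and in the Dohh window at 3, but not in the Dhps window. Of all genes 8.09% hold it in a window of this length. Its stretches, with the E-box in capitals, are shown for 1 site per gene.
Eif5a (chr11:69921443-69921472, minus strand): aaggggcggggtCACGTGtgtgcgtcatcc
Eif5a2 (chr3:28781148-28781177, plus strand): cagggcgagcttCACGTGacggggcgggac
Dohh (chr10:81384424-81384453, plus strand): gcccagcatggtCACGTGgccatcaagatg
These are matches of letters, and no binding was measured in these samples.

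Dhps, the gene of the enzyme that uses spermidine, fell over the time course. Dohh, the gene of the enzyme that follows it, rose. Neither gene of the substrate protein was called at any time against 0 min. By 600 min the Dhps level had dropped by 28.1% from 0 min. The Dohh level was 32.9% higher at 480 min, the only time at which it was called against 0 min. At 600 min it was 16.8% higher and not called (limma adjusted p = 0.145).

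**Figure D1:**
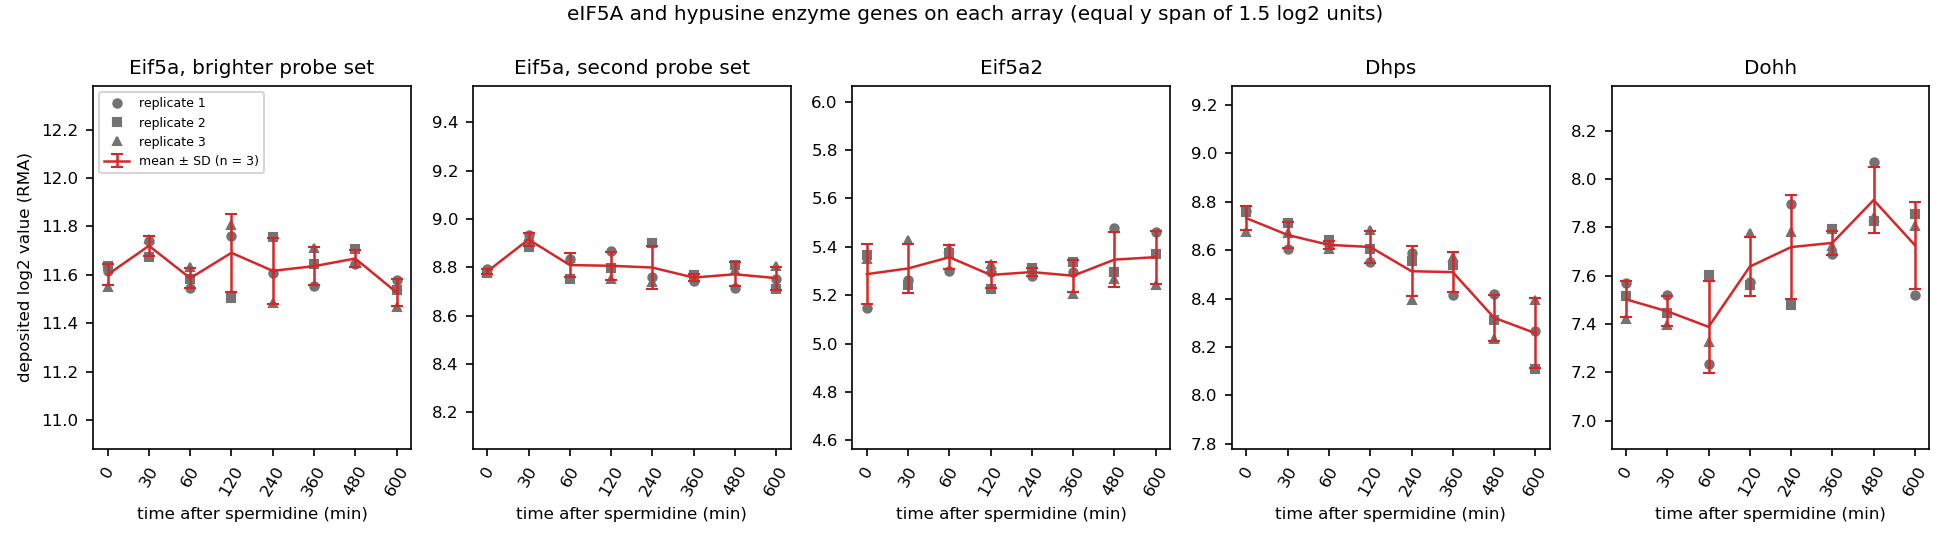
Deposited log2 value (y axis, equal span in every panel) against minutes after spermidine (x axis, evenly spaced) for both Eif5a probe sets and for Eif5a2, Dhps and Dohh. Grey symbols are single arrays and the red line is the mean ± SD (n = 3). The Dhps mean is 8.73 at the start and 8.26 by 600 min, the Dohh mean goes from 7.50 to a highest mean of 7.91 at 480 min, and the other panels stay close to level.

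The 3 arrays of 0 min had Dhps levels of 8.76, 8.76 and 8.68. At 30 min they were 8.60, 8.71 and 8.67, at 60 min 8.62, 8.64 and 8.60, and at 120 min 8.55, 8.60 and 8.68. These early arrays lay below the lowest 0 min array except for replicate 2 at 30 min and replicate 3 at 120 min. At 240 min the levels were 8.59, 8.56 and 8.39, and at 360 min 8.41, 8.54 and 8.57. The 480 min arrays read 8.42, 8.31 and 8.23, and the 600 min arrays 8.27, 8.11 and 8.40. From 240 min on every Dhps array, as labelled, lay below all 3 arrays of 0 min. How many of all genes have arrays apart in this way, here or in the comparisons below, was not counted. Replicate 3 of 120 min, at 8.68, and replicate 3 of 240 min, at 8.39, are the arrays that lay near each other's group.

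The Dhps mean was 8.73 ± 0.05 at 0 min, 8.51 ± 0.08 by 360 min, 8.32 ± 0.10 by 480 min and 8.26 ± 0.14 by 600 min (SD, n = 3). Against 0 min it fell by 0.22 ± 0.07 at 360 min (SE, limma adjusted p = 0.0217), by 0.41 ± 0.07 at 480 min (adjusted p = 8.98e-05) and by 0.48 ± 0.07 at 600 min (limma adjusted p = 1.47e-05, 95% confidence interval -0.61 to -0.34). The change at 240 min, -0.22, did not pass (limma adjusted p = 0.0801). Of all genes, 10.5% were called lower at 360 min, 14.5% at 480 min and 15.7% at 600 min.

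The calls for Dhps at 480 and 600 min were kept whichever of the 6 arrays compared was left out. That at 360 min ended without replicate 1 of 0 min (limma adjusted p = 0.0751), replicate 2 of 0 min (0.0735) or replicate 1 of 360 min (0.117). With replicate 3 of 120 and 240 min removed, the changes at 120 and 240 min, which use them, were -0.15 and -0.16 in place of -0.12 and -0.22, none of them called.

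Dohh followed another course. Its 0 min levels were 7.57, 7.52 and 7.42, its 30 min levels 7.52, 7.44 and 7.39, and its 60 min levels 7.24, 7.60 and 7.33. Up to that point the arrays overlapped with those of 0 min. At 120 min they were 7.57, 7.56 and 7.78, at 240 min 7.89, 7.48 and 7.78, and at 360 min 7.69, 7.79 and 7.72. At 480 min they reached 8.07, 7.82 and 7.84, and at 600 min they were 7.52, 7.85 and 7.80. All 3 arrays lay above the 0 min group at 360 and 480 min, while replicate 1 of 600 min lay within it and replicate 2 of 240 min was also low.

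The mean Dohh level was 7.50 ± 0.07 at 0 min and 7.91 ± 0.14 at 480 min (SD, n = 3), a rise of 0.41 ± 0.11 (SE, limma adjusted p = 0.00688), where 9.73% of all genes were called higher. At 600 min the mean was 7.73 ± 0.18 and the difference from 0 min, 0.22 ± 0.11, was not called (limma adjusted p = 0.145). At 360 min it was 0.23 ± 0.11 (limma adjusted p = 0.157). Leaving out replicate 1 of 600 min gave a difference of 0.33 there, which was called (limma adjusted p = 0.0355), and a fit to only the 6 arrays of 0 and 360 min called the 360 min difference (limma adjusted p = 0.0135). At 480 min the call held without any 1 of the 6 arrays, with a highest limma adjusted p of 0.0483. With replicate 3 of 120 and 240 min removed, the differences at 120 and 240 min were 0.07 and 0.18 in place of 0.14 and 0.22, none of them called.

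In count, 0 of the 4 genes were called at 30, 60, 120 and 240 min, where 0.0150%, 0.0251%, 0.471% and 3.06% of all genes were called. Dhps alone was called at 360 min, Dhps and Dohh at 480 min and Dhps alone at 600 min, against 19.0%, 24.2% and 26.9% of all genes. With 4 genes these counts are near the shares of the whole array and show nothing particular to the pathway. By the limma F-test over the 7 differences from 0 min, Dhps (adjusted p = 5.43e-05) and Dohh (adjusted p = 0.00716) changed, while Eif5a (adjusted p = 0.347) and Eif5a2 (adjusted p = 0.889) did not pass. That test called 30.9% of all genes. Without replicate 3 of 120 and 240 min the limma adjusted p was 3.08e-05 for Dhps, 0.00768 for Dohh, 0.232 for Eif5a and 0.889 for Eif5a2. The 7 comparisons use the same 0 min arrays and so depend on one another.

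**Figure D2:**
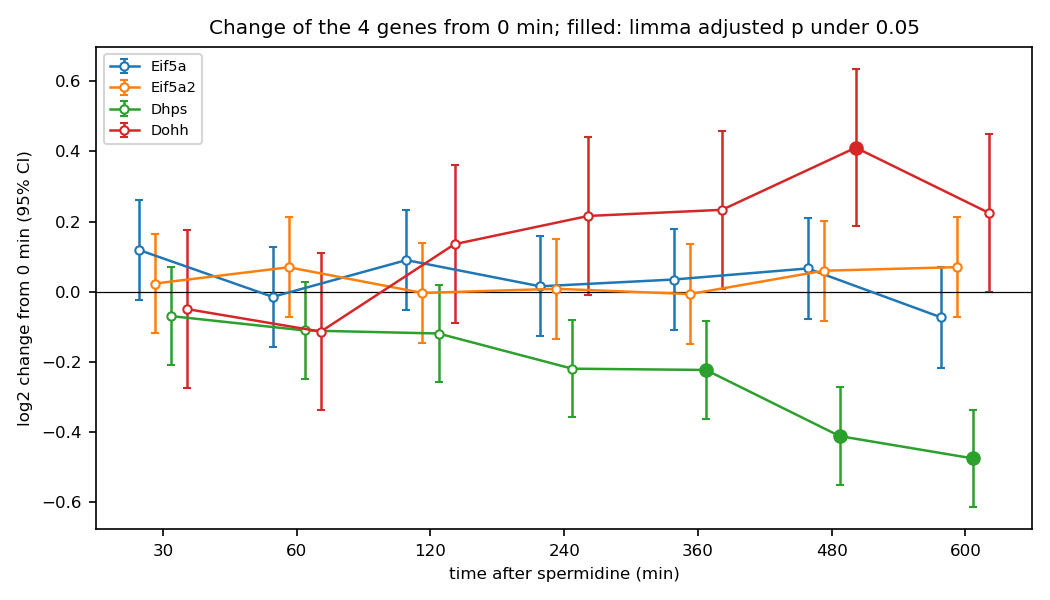
Log2 change from 0 min (y axis) with its 95% confidence interval from the limma fit, at each time after spermidine (x axis, evenly spaced), for the 4 genes. Filled points passed an adjusted p of 0.05: Dhps at 360, 480 and 600 min and Dohh at 480 min. The intervals of Eif5a and Eif5a2 include 0 at every time.

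The comparison of late arrays (360, 480 and 600 min) with early ones (30, 60 and 120 min) does not use 0 min. The late Dhps arrays ran from 8.11 to 8.57 with a median of 8.40, and the early ones from 8.55 to 8.71 with a median of 8.62. Of the 9 late arrays 8 lay below every early array. The difference was -0.27 ± 0.04 (SE, limma adjusted p = 7.72e-06), where 35.8% of all genes were called and 19.4% were called lower. For Dohh the late arrays ran from 7.52 to 8.07 with a median of 7.80, and the early ones from 7.24 to 7.78 with a median of 7.52. Here 6 of 9 late arrays lay above every early one, and the difference was 0.30 ± 0.06 (limma adjusted p = 5.49e-04, with 16.4% of all genes called higher). Both calls were kept when any 1 of the 18 arrays was left out, and with replicate 3 of 120 and 240 min removed the differences were -0.26 and 0.32. The highest early Dohh array was replicate 3 of 120 min, and without it 8 of 9 late arrays lay above every early one.

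Whether the genes moved unequally was tested within arrays, by the late minus early difference of the log2 difference between 2 genes, over all 6 pairs. The test reassigned late and early arrays freely. It took no account of shared times or of the replicate means made equal before deposit, so its p-values are approximate. Dhps moved down relative to Dohh by 0.57 on the log2 scale (written Dhps minus Dohh, -0.57; exact two-sided permutation test, 9 against 9 arrays, p = 4.11e-05, the smallest the test can give, adjusted p = 2.47e-04). Each enzyme gene also moved apart from each isoform gene. Eif5a minus Dhps rose by 0.21 (exact adjusted p = 0.00463) and Eif5a2 minus Dhps by 0.28 (exact adjusted p = 0.00222). Eif5a minus Dohh fell by 0.35 (exact adjusted p = 0.00123) and Eif5a2 minus Dohh by 0.29 (exact adjusted p = 0.00513). The remaining pair, Eif5a minus Eif5a2, differed by -0.07 (exact adjusted p = 0.253), which does not show that the isoform genes moved alike. With replicate 3 of 120 min removed (9 against 8 arrays) the first 5 differences kept their calls, with Dhps minus Dohh at -0.60 (exact adjusted p = 2.47e-04) and a highest exact adjusted p of 0.00410, and the last was -0.05 (exact adjusted p = 0.388).

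Set to 0 at the mean of the 0 min arrays, the Dhps minus Dohh difference was 0.0032 ± 0.18 at 60 min and -0.25 ± 0.07 at 120 min (SD, n = 3). It then reached -0.44 ± 0.25 at 240 min, -0.46 ± 0.07 at 360 min, -0.82 ± 0.07 at 480 min and -0.70 ± 0.25 at 600 min. All arrays from 120 min on were below 0, the nearest being replicate 2 of 240 min at -0.15. Without replicate 3, the means of the 2 arrays left at 120 and 240 min were -0.22 and -0.34. Over the 24 arrays the levels of Dhps and Dohh had a Pearson correlation of -0.54, and over the 8 time means of -0.79. After the time means were taken out it was 0.19, so the opposite course lay between times and not between arrays of the same time. Over the 22 arrays without these replicates the correlations were -0.58, -0.79 and 0.21. These correlations are descriptions over arrays that share times.

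**Figure D3:**
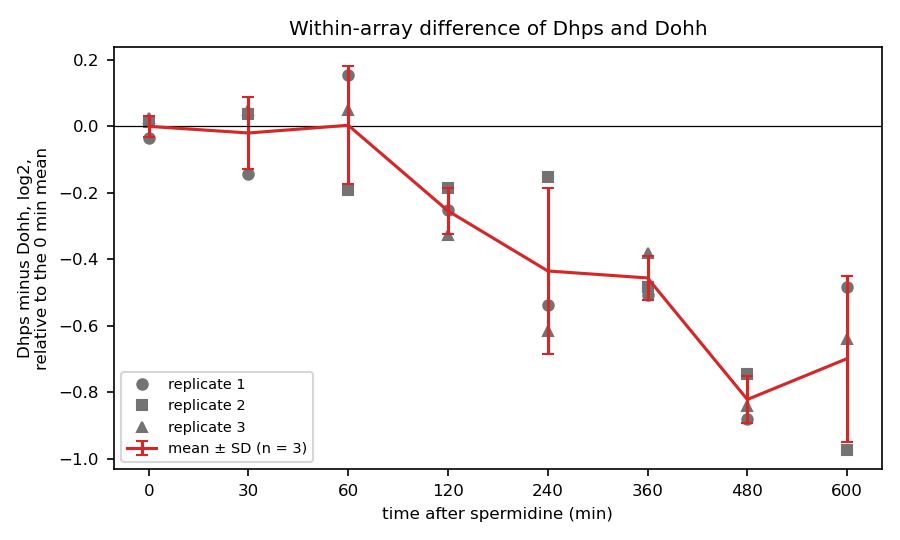
Within-array log2 difference of Dhps and Dohh, relative to its mean at 0 min (y axis), against minutes after spermidine (x axis, evenly spaced). Grey symbols are arrays and the red line is the mean ± SD (n = 3). The arrays scatter around 0 up to 60 min and lie below it from 120 min on, with a mean of -0.82 at 480 min.

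No step between neighbouring times was called for any of the 4 genes in the 6 intervals from 30 min on (0 of 24 limma tests, lowest adjusted p = 0.280, 2 with an unadjusted p under 0.05). In time order these intervals called 0.0451%, 0.411%, 0%, 6.05%, 0.612% and 0.181% of all genes. The 2 were Dhps from 360 to 480 min, -0.19 ± 0.07, and Dohh from 60 to 120 min, 0.25 ± 0.11. The Dohh step without replicate 3 of 120 and 240 min was 0.18 ± 0.12, and 0 of 24 were called (limma, lowest adjusted p = 0.173, 3 with an unadjusted p under 0.05). These 3 were the same Dhps step, Eif5a from 30 to 60 min (-0.13 ± 0.06) and Eif5a from 480 to 600 min (-0.14 ± 0.06). The level order for Dhps was, as labelled, the order of the times, but it rests on labels at 120 and 240 min, where the means of the 2 arrays left after that removal were 8.58 and 8.57. For Dohh it ran, from the highest mean, 480, 360, 600, 240, 120, 0, 30 and 60 min. Eif5a was highest at 30 min and lowest at 600 min, and Eif5a2 was highest at 600 min and lowest at 360 min (at 120 min with the 2 arrays removed). In none of the 4 orders was a gap between neighbours called after adjustment over all genes (0 of 28 gaps by limma, the lowest adjusted p again 0.280).

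Eif5a encodes the isoform found in most cells. The platform annotation gives it a pair of probe sets, and that of higher mean (10523058) was used. The 0 min arrays read 11.61, 11.64 and 11.55, the 30 min arrays 11.74, 11.67 and 11.75, and the 600 min arrays 11.58, 11.54 and 11.47. All 3 arrays of 30 min lay above those of 0 min, as did those of 480 min (11.64, 11.71 and 11.65), and the groups overlapped at the other times. The lowest array of 480 min was at 11.6443 and the highest of 0 min at 11.6374. Neither difference was called, and the share of all genes with arrays apart in this way was not counted. The spread of Eif5a was widest at 120 min, where replicate 2 read 11.51 and the others 11.76 and 11.80. The 7 differences of probe set 10523058 from 0 min ran from -0.07 (600 min) to 0.12 (30 min). Of these 0 were called by limma and 0 were at an unadjusted p under 0.05. The 95% confidence intervals together reached from -0.22 to 0.26, so changes within that span were not resolved by 3 arrays a time. Leaving out replicate 2 of 120 min brought the F-test over time past the threshold (limma adjusted p = 0.0441).

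The second Eif5a probe set (10387733) read 8.79, 8.78 and 8.78 at 0 min. At 30 min it read 8.93, 8.88 and 8.93. These lay above the 0 min arrays, as they did in the brighter probe set. The difference of 0.13 ± 0.04 had an unadjusted limma p of 0.00548 but was not called (limma adjusted p = 0.737 over 21789 probe sets). By 600 min it was at 8.75, 8.71 and 8.80. Its late minus early difference, -0.08 ± 0.02, was called (limma adjusted p = 0.0113, where 35.3% of all probe sets were called in either direction) and kept its call without any 1 of the 18 arrays. It was -0.09 with replicate 3 of 120 and 240 min removed (limma adjusted p = 0.00565). The brighter probe set gave -0.06 ± 0.04 in the same comparison (limma adjusted p = 0.319, interval -0.14 to 0.03), and the mean of both probe sets -0.07 (adjusted p = 0.0592). For the brighter one the value ran from -0.09 without replicate 2 of 120 min (limma adjusted p = 0.0517) to -0.04 without replicate 3 of 120 min (adjusted p = 0.546), and was not called without any 1 array. With replicate 3 of 240 min also removed it was -0.04 (limma adjusted p = 0.493). In late minus early the probe sets shared a sign and differed in their call. Against 0 min they were of opposite sign at 60 min (-0.01 brighter, 0.03 second), 360 min (0.03, -0.03) and 480 min (0.07, -0.01). None of these was called. At 480 min the second probe set read 8.72, 8.81 and 8.79, which overlapped with 0 min. Whether near-identical copies of Eif5a in the genome add signal to either probe set was not tested.

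Eif5a2, the isoform with a narrower range of tissues, read between 5.14 and 5.48 on all arrays. It read 5.14, 5.37 and 5.35 at 0 min and 5.46, 5.37 and 5.24 at 600 min, and the groups overlapped at every time. The table has no detection calls, so it is not known whether this probe set lies above background. Differences from 0 min ran from -0.0066 to 0.07 (0 called by limma and 0 at an unadjusted p under 0.05), within confidence intervals that reached from -0.15 to 0.21. The late minus early difference was 0.01 ± 0.04 (limma adjusted p = 0.870, interval -0.07 to 0.09), and 0.02 with replicate 3 of 120 and 240 min removed (adjusted p = 0.798). The signs of these small differences changed with the scaling of the arrays, and no direction is drawn for Eif5a2.

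Genes whose levels ran most like those of Dhps over the 24 arrays were Mettl1, a tRNA methyltransferase gene (r = 0.94), Cops7a, a signalosome subunit gene (0.91), Eif2d, an initiation factor gene (0.91), Aldh6a1, a valine catabolism gene (0.91), and Letm1, a mitochondrial ion exchanger gene (0.91). Dhps was far from alone in this course, since 488 genes had a correlation above 0.8 with it. For Dohh the likest were the spliceosomal RNA gene Rnu12 (0.86), Dynll2 (0.85), a dynein light chain gene, Atg101 (0.85), an autophagy gene, Egln2 (0.84), a prolyl hydroxylase gene, and Rnaseh2a (0.82), a ribonuclease subunit gene, and 6 genes passed 0.8. No gene passed 0.8 with Eif5a, whose likest were Mamld1 (0.76), Lox (0.74), Zfp638 (0.72), Foxp1 (0.71) and Tlk1 (0.68). The same was true of Eif5a2, whose likest were Dock9 (0.69) and, each at 0.68, Olfr1471, Ptprn, Hdac5 and Slc25a30. Over the 8 time means Mettl1 had a correlation of 0.99 with Dhps, but Dock9 only 0.05 with Eif5a2. The genes above 0.8 over the 22 arrays without replicate 3 of 120 and 240 min numbered 1039 for Dhps and 43 for Dohh, and again 0 for Eif5a and Eif5a2. All these values come from the same arrays and are descriptions.

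Genes around the pathway were taken from lists drawn up by function, with earlier results of these data known. Of 14 measured genes of spermidine supply, 3 rose and 7 fell at 600 min, with a median change of -0.16 against 0.0055 over all genes, where 11.2% of all genes were called higher and 15.7% lower. The rises were Oaz2, which encodes an antizyme that restrains polyamine synthesis and uptake (1.23 ± 0.16, limma adjusted p = 6.36e-06), the spermine oxidase gene Smox (0.71 ± 0.10) and the polyamine acetyltransferase gene Sat1 (0.69 ± 0.07). The largest falls were Slc3a2, the heavy chain of amino acid transporters (-0.74 ± 0.06), the polyamine transporter gene Atp13a3 (-0.69 ± 0.08) and the antizyme inhibitor gene Azin2 (-0.48 ± 0.09). Srm, the gene of spermidine synthase, which makes the donor of hypusine, was among the other falls (-0.34 ± 0.07, limma adjusted p = 7.91e-04), and was named after its value was seen. Smox read 4.80 at 0 min and Azin2 4.84 at 600 min, within the 3.63 to 4.94 of the markers of other cell types. Whether these levels lie above background is not known. Amd1, Amd2, Sms, Paox and Oaz1 had no probe set of their own symbol alone.

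Diphthamide is another translation factor residue built by dedicated enzymes, and it is made on elongation factor 2. Of 6 measured genes of its synthesis 5 fell and 0 rose at 600 min, with a median of -0.39, where 15.7% of all genes fell and 11.2% rose. Dph5, a methyltransferase gene of that pathway, fell by 0.70 ± 0.08 (limma adjusted p = 1.96e-06), the J-domain gene Dnajc24 by 0.52 ± 0.09 and Dph3 by 0.39 ± 0.06. At 360 min 3 of the 6 were called lower, against 10.5% of all genes. Dph7 was at 0.04 (limma adjusted p = 0.622), and the call of Dph6 ended without replicate 2 of 0 min (0.0506) or of 600 min (0.0887). No test set these genes against Dhps.

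The elongation and termination factors, beside which eIF5A works on the ribosome, had a median change of -0.02 at 600 min. Of 12 measured, 1 rose and 3 fell, near the 11.2% and 15.7% of all genes. Eef1e1, a scaffold gene of the tRNA synthetase complex, fell by 0.54 ± 0.12, the release factor gene Etf1 by 0.36 ± 0.05 and the ribosome recycling gene Abce1 by 0.29 ± 0.05 (limma adjusted p = 1.58e-04). The rise was Eef2k, the kinase gene of elongation factor 2 (0.21 ± 0.08, limma adjusted p = 0.0493), a call lost with the replicate block (0.0736) and without 5 of the 6 arrays compared in turn. Eef2 itself, the carrier of diphthamide, was at -0.04 (adjusted p = 0.527), named here as the substrate.

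Of 4 genes for the export and acetylation of eIF5A, 1 rose and 2 fell at 600 min, with a median of -0.10. Of all genes 11.2% rose and 15.7% fell, and a list of 4 is too short to set against these shares. Xpo4, the exportin gene for eIF5A, went from 8.02 ± 0.13 to 7.74 ± 0.12 (SD, n = 3), a fall of 0.29 ± 0.09 (limma adjusted p = 0.0273) that was not called without replicate 2 of 0 min (0.146), replicate 3 of 0 min (0.0568) or replicate 3 of 600 min (0.145). Sirt2, a deacetylase gene, fell by 0.36 ± 0.07, and Hdac6, also a deacetylase gene, rose by 0.33 ± 0.08 (limma adjusted p = 0.00373). Kat2b, an acetyltransferase gene, was at 0.09 (adjusted p = 0.696). Eif5 and Eif5b, initiation factor genes of similar name without hypusine, were at 0.31 ± 0.07 (limma adjusted p = 0.00288) and -0.07 ± 0.06 (adjusted p = 0.453).

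**Figure D4:**
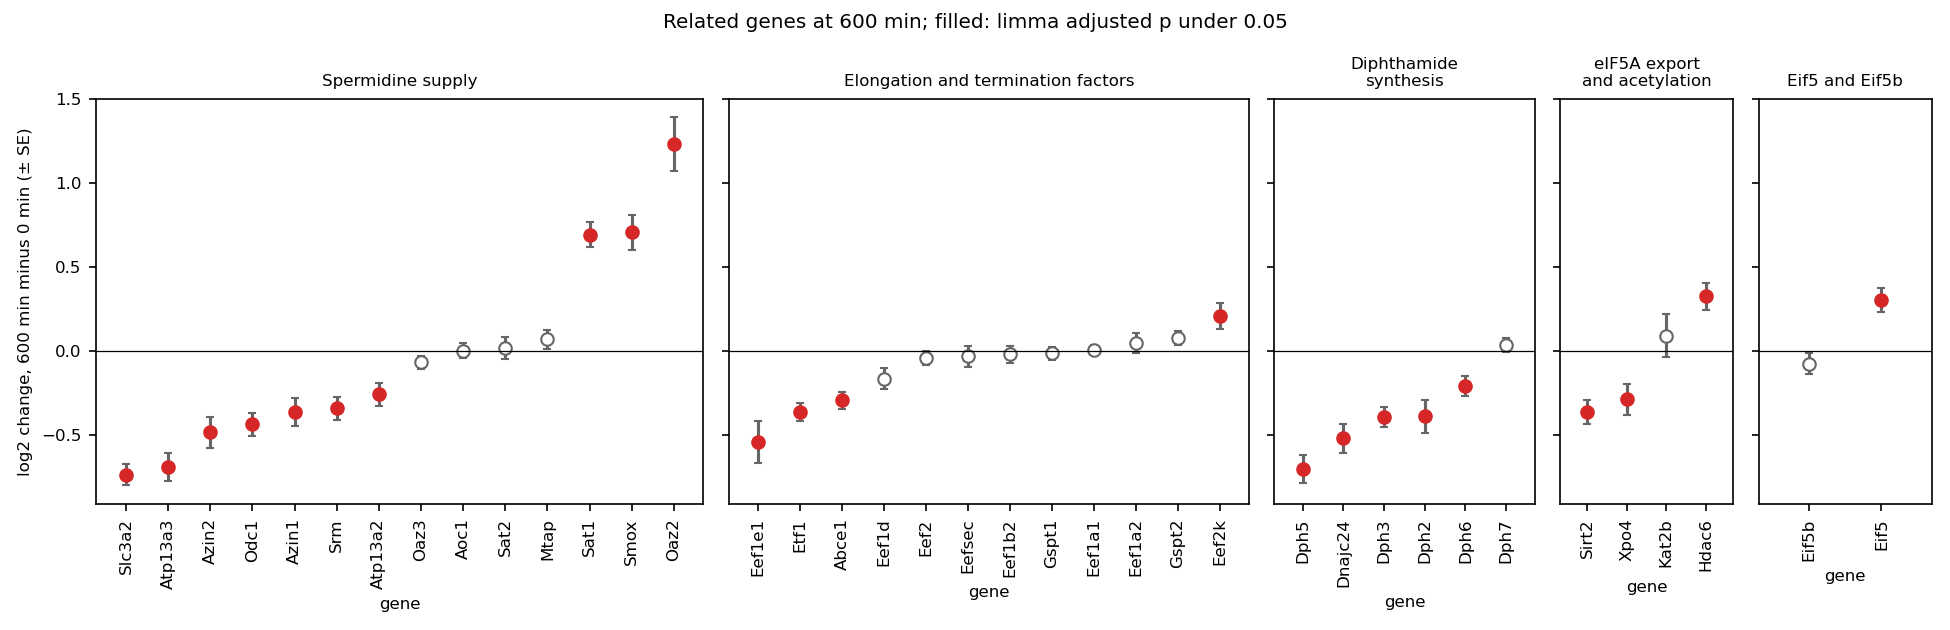
Log2 change from 0 to 600 min (y axis, ± SE of the limma fit) of each measured gene (x axis) in the 5 lists around the pathway. Filled points passed an adjusted p of 0.05. In the diphthamide list 5 of 6 points are filled and below 0, and in the spermidine supply list Oaz2 is highest at 1.23.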

How the data were processed

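The authors deposited 1 table of log2 values for 35399 probe sets on 24 arrays. Partek and robust multi-array averaging (RMA) are named per the submitters' processing notes; the log2 scale was inferred from the values, and no source used here gives the step that equalised replicate means. Values were used as they stand. Probe sets with 1 gene symbol (21789; 1621 had several, 11989 none) entered the tests, with the one of highest mean per gene, which gave 19938 genes.

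A limma 3.58.1 model (R 4.3.3) with 1 mean per time, 16 residual and 3.48 prior degrees of freedom, gave moderated two-sided tests, adjusted by Benjamini-Hochberg over all genes in each comparison and called under 0.05. Pairs of genes were compared by exact permutation (Python 3.11.15, NumPy 2.4.6). Likest genes were the 5 of highest Pearson correlation with a proper name. From the lists, the 3 largest called rises and falls at 600 min and Xpo4 were named. The genes, lists and tests were chosen with earlier results of these data known. On simulated data for 480 min against 0 min (19938 genes), 89% of changes of 0.5 were recovered. The simulated noise was independent between arrays and took each gene's SD from the 3 arrays of 0 min. That SD was below the SD within times for Dhps (0.05 against 0.08), Dohh (0.07 against 0.14) and Eif5a (0.04 against 0.09). For Eif5a2 it was above (0.12 against 0.09). All changes of the 4 genes were smaller than 0.5, so that share does not tell how often such changes were missed. Alternatives were a replicate block, other scalings, probe set rules, filters and priors, and left-out arrays. The number of arrays limits the precision, with a median SE of 0.0567.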

Additional observations from a re-analysis of the deposited data

How the results depend on the processing

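Across the alternatives to the whole fit, Dhps kept its direction and calls at 360, 480 and 600 min and in late minus early (-0.29 to -0.23), and Dohh at 480 min and in late minus early (0.28 to 0.32). The replicate block left the values as they were and ended none of these calls: Dhps at 600 min was -0.48 (limma adjusted p = 6.03e-05) and Dohh at 480 min 0.41 (adjusted p = 0.0129). Same-numbered arrays had a median correlation of deviations of -0.15 over 84 pairs. Equal replicate means over the times force such correlations below 0, so whether the numbers pair the arrays cannot be tested on these values. The block lowered the count of all genes called against 0 min from 3 to 0 at 30 min, 5 to 2 at 60 min, 94 to 40 at 120 min and 610 to 356 at 240 min, and between neighbouring times from 9 to 1, 82 to 37, 1207 to 776, 122 to 65 and 36 to 21 for the intervals ending at 60, 120, 360, 480 and 600 min.

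With only the 6 arrays compared Dohh was called at 360 min (0.23, unchanged), so 2 of the 4 genes were called there. Signs turned for uncalled values near 0. For Eif5a2 these were 0.0044 at 120 min and -0.0062 in late minus early with arrays centred on medians, and -0.0016 at 30 min, 0.0098 at 120 min and 0.0027 at 360 min after quantile normalization. With probe sets averaged Eif5a was at 0.0060 at 60 min. The cause was not tested.

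With single arrays left out, Dhps at 360 min ranged from -0.26 to -0.18 and Dohh at 600 min from 0.16 to 0.33, with 0 to 1 and 1 to 2 of the 4 genes called at these times. The F value of Eif5a ranged from 1.16 to 3.57. Eif5a ranged from -0.039 to 0.0060 at 60 min, -0.055 to 0.082 at 240 min and -0.0024 to 0.077 at 360 min. Eif5a2 ranged from -0.048 to 0.063 at 30 min, -0.0012 to 0.11 at 60 min, -0.075 to 0.036 at 120 min, -0.063 to 0.048 at 240 min, -0.078 to 0.033 at 360 min, -0.011 to 0.10 at 480 min, -0.00087 to 0.13 at 600 min and -0.010 to 0.031 in late minus early. The kinase gene Eef2k, the 1 gene of the elongation and termination list called higher at 600 min, was not called with the block, with centred arrays or with an intensity trend. After quantile normalization 1 of the export and acetylation genes was called lower in place of 2.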
